A study of Bos taurus with 32 samples.

Results

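Caruncles of the uterine horn opposite the corpus luteum were compared between repeat breeder (RB) and normally fertile (non-RB) cows. Of the 32 single-colour arrays of the series, 8 carried RNA from this tissue, and they were chosen by their titles: 4 from RB cows and 4 from non-RB cows. Each array measured total RNA of dissected endometrium, labelled with Cy3 from an oligo(dT) primer, and 15208 probes of 60 bases for cattle genes were read on it. The other 24 arrays held the caruncles of the ipsilateral horn and the intercaruncular endometrium (ICAR) of both horns, and 2 of these sets, the ipsilateral CAR and the contralateral ICAR, are used below for comparison.

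All 8 animals were adult, non-lactating Japanese Black cows from a single ranch, and all were killed at Day 15 of their cycle, with estrus as Day 0. RB status had been given to cows that had not become pregnant after several services and in which palpation of the genital tract found no abnormality. Their cycles could be regular or not. Non-RB cows had conceived, and their pregnancy had then been ended by an injection of a prostaglandin F2α analogue, after which normal cycles returned. A recent induced abortion was therefore part of the history of the non-RB group only, and it cannot be told apart from fertility in these data. The tissue of a horn was cut from its middle part, CAR before ICAR. Whether the same replicate number in RB and non-RB cows links the animals is not given in the labels, and the arrays were compared unpaired.

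Caruncles are the raised, gland-poor areas of the ruminant endometrium to which the fetal cotyledons attach, while the uterine glands open between them. Around Day 15 the endometrium of a cycling cow is still under progesterone, and it is close to the time at which oxytocin-driven pulses of prostaglandin F2α end the corpus luteum unless an embryo intervenes. The horn opposite the corpus luteum receives less of the ovarian hormones through local vessels than the horn on the same side.

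Signal is given on the log2 scale with the 75th percentile of each array as 0, a percentile that lay between 2266 and 4845 intensity units on the 8 arrays. Between 79.7% and 85.8% of probes were well above background. A difference of 1 on this scale is a doubling. Non-RB replicate 2 stood apart: a smooth surface over rows and columns spanned 2.21 log2 units on it and took 19.3% of the variance, against at most 0.51 units and 2.88% on the other 7 arrays, and 351 spots carried an outlier flag there against at most 4 elsewhere. Its mean correlation with the other non-RB arrays was 0.923, where the other 7 arrays correlated with their groups at 0.956 to 0.976. It was also the only array of this tissue on its slide and in its scan session. The other array on that slide, non-RB replicate 1 of contralateral ICAR, was uneven too, with a surface of 0.94 log2 units and 100 outlier spots. RB replicates 2 and 3 shared a slide with no non-RB array of this tissue, so slide and group could be told apart only on slide 8 (RB 1 and non-RB 1) and slide 6 (RB 4 and non-RB 3). Differences are therefore given over 8 arrays and again over the 7 arrays without non-RB replicate 2. Levels of different probes are not compared with each other.

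No probe of 13135 tested differed between RB and non-RB cows after adjustment, over 8 arrays (0.0% called) or over 7 (0.0% called). The smallest adjusted p of limma was 0.9998 over 8 arrays and 0.0869 over 7. At an unadjusted limma p under 0.05 there were 228 probes over 8 arrays (1.74%), of which 158 (1.2%) were higher and 70 (0.533%) lower in RB cows. Without the uneven array there were 609 (4.64%), with 493 (3.75%) higher and 116 (0.883%) lower. Uniform p-values would give about 657 of the 13135 probes, and both counts lay under that level. The methods' t-test gave 239 at its unadjusted p over 8 arrays and 0 after adjustment. The genes below are therefore described by their values, with none of them past an adjusted threshold. Of the 228 probes, 150 were also among the 609, all with the same direction. The 7 arrays are part of the 8, so this is no independent evidence.

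In 167 probes (1.27%) the 4 RB arrays lay wholly on one side of the 4 non-RB arrays, 116 (0.883%) above and 51 (0.388%) below. Over 7 arrays the groups did not overlap in 709 probes (5.4%), 539 (4.1%) above and 170 (1.29%) below. Leaving out any other single array gave between 248 and 472 such probes. In those 709 probes the uneven array fell on the non-RB side in 167, within the RB range in 166 and beyond the RB range in 363, and it had no value in 13. The sign of the group difference itself turned in 3542 of the 13135 probes when the array was left out.

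**Figure D1:**
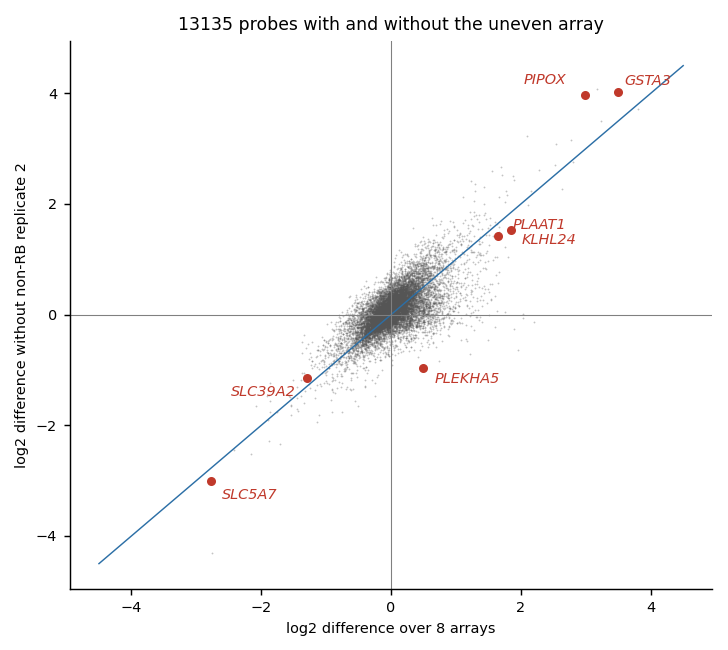
Each grey point is 1 of 13135 probes, with the log2 difference RB minus non-RB over 8 arrays on the x axis and over the 7 arrays without non-RB replicate 2 on the y axis; the line marks equal values and red points are named genes. GSTA3 and PIPOX lie at the upper right in both, SLC5A7 at the lower left, and PLEKHA5 moves from 0.50 to -0.97.

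The 2 genes with the widest differences among those the study tabulates for this tissue code for oxidation and conjugation enzymes. GSTA3 encodes an alpha-class glutathione S-transferase, which joins glutathione to reactive electrophiles and also acts as an isomerase in steroid synthesis, and PIPOX encodes a peroxisomal oxidase that breaks down pipecolic acid and sarcosine. The array names the GSTA3 and KLHL24 probes only by clone identifiers, and 8 of the 20 tabulated genes owe their name to the study's own listing. The 60-base sequences read by those 2 probes are therefore shown in full, 5′ to 3′.
GSTA3 probe: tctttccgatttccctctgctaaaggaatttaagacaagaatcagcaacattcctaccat
KLHL24 probe: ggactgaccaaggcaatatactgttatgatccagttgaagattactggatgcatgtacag
Each probe can report other transcripts that share enough of its letters, and their positions in the genome were not analysed here. Of their bases, 38.3% were G or C in the GSTA3 probe and 41.7% in the KLHL24 probe.

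GSTA3 signal in RB cows was -1.90, -2.09, -2.24 and -5.32 for replicates 1 to 4, and in non-RB cows -7.80, -4.78, -6.28 and -6.64. Replicates 1 to 3 of the RB cows were well above every non-RB array, while RB replicate 4 lay below the uneven non-RB array and above the other non-RB arrays. The means were -2.89 ± 1.63 (SD, n = 4) and -6.38 ± 1.25 (SD, n = 4), an 11.2-fold difference. The log2 difference was 3.49 with a standard error of 0.86 in limma, and the exact permutation test gave a two-sided p of 0.0571, where 0.0286 is the smallest that 4 against 4 or 4 against 3 arrays allow. Without non-RB replicate 2 the groups no longer overlapped and the log2 difference was 4.02 (16.2-fold, exact permutation p = 0.0571). Within slides the gap was uneven, since RB 1 exceeded non-RB 1 by 5.90 and RB 4 exceeded non-RB 3 by 0.96.

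The other measured members of the glutathione S-transferase families were nearer to each other in the 2 groups. GSTA2, of the same alpha class, had a log2 difference of -0.41 over 8 arrays (-0.30 over 7), GSTA4 of -0.09 (0.16) and the theta-class GSTT1 of 0.14 (0.26). The pi-class gene, listed on the array under LOC281806, had 0.38 (0.25), and GSTK1, the mitochondrial and peroxisomal kappa-class enzyme, had 0.59 (0.49). Among microsomal members MGST1 had 0.49 (0.23) and MGST3 0.09 (0.02). The 2 probes of MGST2 gave -0.18 and 0.92 over 8 arrays, and 0.09 and -0.12 over 7. In the full list of 29 glutathione and antioxidant genes tested, 17 were higher and 12 lower, GSTA3 alone had an unadjusted p under 0.05, and the median was 0.09 (0.02 over 7 arrays, and -0.01 with the slide as a block), where the median over all probes was 0.00 (0.06 over 7). SELENOP, the plasma carrier of selenium, had a p under 0.05 only over 7 arrays, at -0.71 against -0.08 over 8. Its signal on non-RB replicate 2 was 3.22, against 5.54 to 5.95 on the other non-RB arrays.

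PIPOX signal was -3.998, -3.53, -3.21 and -4.49 in RB replicates 1 to 4, and -6.66, -3.82, -8.89 and -7.79 in the non-RB replicates. The uneven array lay inside the RB range, and the 3 other non-RB arrays lay below it, so that the groups separated only without it. The log2 difference was 2.99 (7.92-fold) over 8 arrays and 3.98 (15.7-fold) over 7, and the latter had the lowest p of the tabulated genes (limma adjusted p = 0.314). The two-sided exact permutation p was 0.0857 over 8 arrays and 0.0286 over 7. PIPOX was well above background on 4 RB but only 2 non-RB arrays, 1 of them the uneven array. Its log2 difference ranged from 1.59 to 3.83 over other processing settings. Within slides the gap was 2.66 on slide 8 and 4.40 on slide 6. Of the other 10 peroxisomal genes tested none had an unadjusted p under 0.05, and the list median was 0.02 over 8 arrays and 0.11 over 7. EHHADH, the bifunctional enzyme of peroxisomal beta-oxidation, had a log2 difference of 0.87 over 8 arrays and 0.37 over 7.

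**Figure D2:**
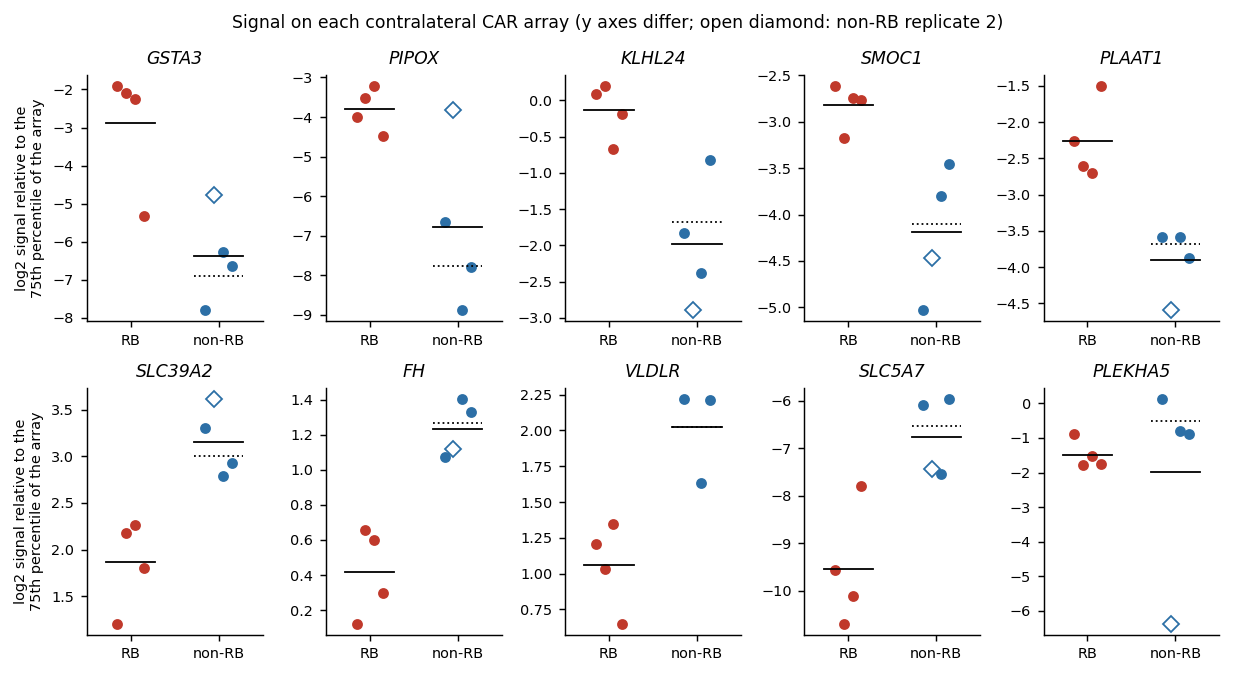
Log2 signal against the 75th percentile (y axis) of named genes on each contralateral CAR array, RB beside non-RB cows; solid lines are group means, the dotted line is the non-RB mean without replicate 2, and the open diamond is non-RB replicate 2. For GSTA3 and PIPOX the diamond lies within the RB range (-4.78 and -3.82); VLDLR has no value there.

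KLHL24 encodes a substrate adaptor of a ubiquitin ligase that turns over keratin filaments. Its signal was 0.09, 0.20, -0.67 and -0.18 in RB cows, and -1.83, -2.90, -2.38 and -0.82 in non-RB cows. The lowest RB array thus lay above the highest non-RB array, by a small margin. The mean difference was 1.84 over 8 arrays (3.58-fold) and 1.54 over 7 (2.90-fold), and the exact permutation p was 0.0286 each time. KLHL24 stayed at an unadjusted p under 0.05 when each array in turn was left out.

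SMOC1, a secreted calcium-binding matrix protein of basement membranes that antagonizes BMP signals, also had groups that did not overlap over 8 arrays. SMOC1 signal was between -3.18 and -2.61 on the RB arrays and between -5.03 and -3.46 on the non-RB arrays, a log2 difference of 1.37 (1.27 over 7). A second SMOC1 probe differed by 1.75 over 8 arrays and 1.21 over 7. It was named because its groups did not overlap over 8 arrays, so that separation is no independent evidence. Its first bases are also the last bases of the first probe, so the 2 read adjoining parts of the same transcript sequence.

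In 5 more tabulated genes with higher signal in RB cows the groups overlapped over 8 arrays. CCL14, a CC chemokine, differed by 1.42 over 8 arrays and by 1.08 over 7, and overlapped in both. ELF5, an ETS-family transcription factor of secretory epithelium and trophoblast, differed by 1.28 and 1.85. TNNC1, the calcium sensor of slow muscle troponin, differed by 0.80 and 1.38, and its non-RB replicate 2 at -3.69 was about level with the highest RB array at -3.67. ACAN, the large chondroitin sulfate proteoglycan of cartilage, differed by 0.97 and 1.35, and it also overlapped over 7 arrays, as non-RB replicate 3 was at -3.90. NTS, the gut and brain peptide neurotensin, differed by 0.96 and 1.18, and RB replicate 1 at -5.38 lay within the non-RB range. All 10 tabulated genes were higher in RB cows over 8 arrays, 6 with an unadjusted p under 0.05 and 3 without overlap, against 10 and 7 over 7 arrays. Of all probes, 1.2% were higher at that p and 0.883% higher without overlap over 8 arrays, and 3.75% and 4.1% over 7. These genes were picked by the study on these animals, so their direction and these counts are not independent evidence.

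Among the 10 genes tabulated as lower in RB cows, SLC39A2 and FH separated the groups over 8 arrays. SLC39A2 encodes a zinc importer of the plasma membrane. Its signal was 1.21, 2.18, 2.26 and 1.80 in RB cows and 3.30, 3.61, 2.79 and 2.93 in non-RB cows, a difference of -1.29 (-1.14 over 7). The study reports that its qPCR did not bear out the array result for SLC39A2 or PLEKHA5 in this tissue. It did so for the higher genes tested there. FH encodes fumarase of the citrate cycle. It was at 0.12, 0.66, 0.60 and 0.30 in RB cows and at 1.07, 1.12, 1.40 and 1.33 in non-RB cows. Both groups of FH were tight, and their difference of -0.81 (-0.85 over 7) exceeded the SD of either group, 0.25 for RB and 0.16 for non-RB cows.

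Sterol genes made up part of the same group. VLDLR, which takes up triglyceride-rich lipoproteins, was between 0.65 and 1.35 in RB cows and at 2.22, 1.64 and 2.21 on the 3 non-RB arrays with a value, because its spot on non-RB replicate 2 was left out. Its difference of -0.96 thus rests on 7 arrays in both fits. SQLE, which makes squalene epoxide in cholesterol synthesis, differed by -0.80 over 8 arrays and -1.02 over 7, and overlapped in both. CYP39A1, a 7-alpha-hydroxylase of 24-hydroxycholesterol, differed by -0.73 and -1.02, with groups apart only over 7 arrays.

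PLEKHA5 was the only tabulated gene whose direction depended on the uneven array. It encodes a pleckstrin homology protein at cell junctions. Its signal was -0.87, -1.78, -1.52 and -1.76 in RB cows and 0.13, -6.37, -0.79 and -0.88 in non-RB cows. The value of -6.37 on non-RB replicate 2 was far below every other array, and the difference was 0.50 with it and -0.97 without it. STAC, an adaptor of voltage-gated calcium channels, differed by -0.96 over 8 arrays and -1.25 over 7. PKP1, a plakophilin of desmosomes, differed by -0.77 and -1.08. SLC5A11, a sodium-coupled inositol and glucose carrier, differed by -0.66 and -0.82, and CMTM3, a MARVEL-domain membrane protein, by -0.55 and -0.86. Of these 10 genes 9 were lower in RB cows over 8 arrays, 5 with an unadjusted p under 0.05 and 2 without overlap. Over 7 arrays all 10 were lower and had a p under 0.05, and 6 did not overlap. Of all probes, 0.533% were lower at that p and 0.388% lower without overlap over 8 arrays, and 0.883% and 1.29% over 7. These 10 genes too were picked by the study on these animals, so the counts are not independent evidence.

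**Figure D3:**
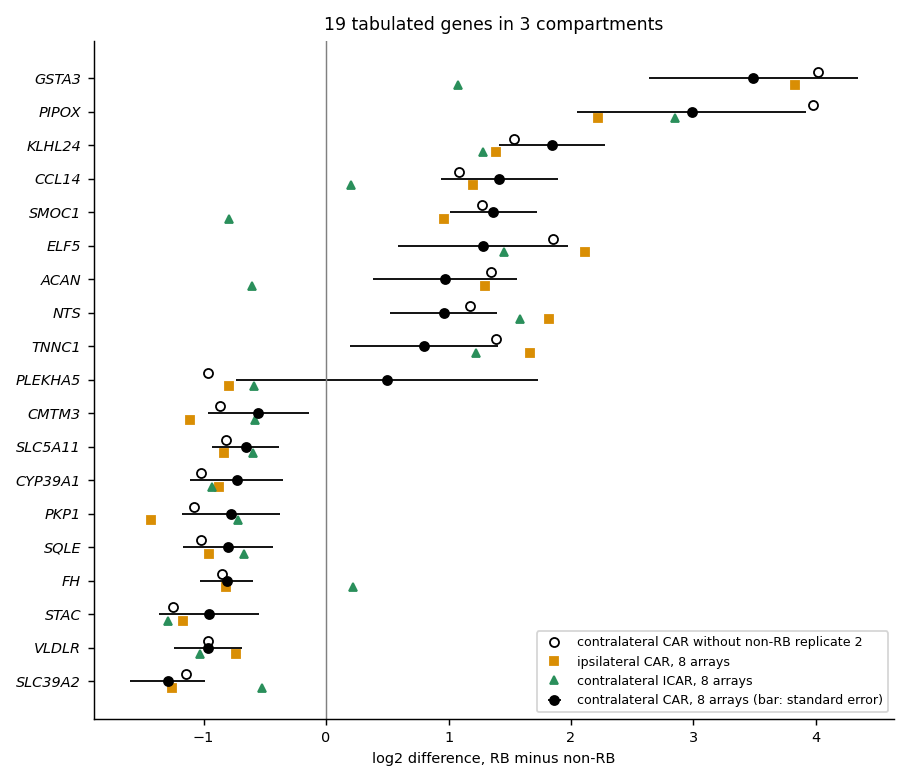
Log2 difference RB minus non-RB (x axis) of 19 genes tabulated by the study: filled points with standard error bars are contralateral CAR over 8 arrays, open points the same without non-RB replicate 2, squares ipsilateral CAR and triangles contralateral ICAR. PLEKHA5 lies at 0.50 over 8 arrays and at -0.97 over 7, and the other 18 genes keep their side between these 2 fits. In contralateral ICAR ACAN (-0.60), SMOC1 (-0.79) and FH (0.22) lie on the other side.

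Beyond the tabulated genes, the named probes with no overlap over 8 arrays and the widest differences were partly dim. PLAAT1, a phospholipase and acyltransferase, had signals of -2.26, -2.61, -2.70 and -1.50 in RB cows and -3.58, -4.59, -3.59 and -3.87 in non-RB cows. It was well above background on all 8 arrays, and its log2 difference of 1.64 (1.41 over 7) had a standard error of 0.35. GATM, the first enzyme of creatine synthesis, differed by 1.17 over 8 arrays and 1.22 over 7. For LIPC, hepatic lipase, for ADAM9, a membrane metalloprotease, and for DNASE1, an extracellular nuclease, the non-RB mean was set in part by non-RB replicate 2, which was the lowest array for each. Without it the LIPC difference went from 1.80 to 1.04, that of ADAM9 from 1.45 to 0.95 and that of DNASE1 from 1.29 to 0.48. AKAP3, an anchoring protein known from sperm, was well above background on 2 RB arrays and on 0 of 4 non-RB arrays, and it was at least 1.04-fold higher in RB cows over 8 arrays and at least 1.12-fold over 7. Such a bound sets the mean of the brighter group against the lowest signal that counted as above background on each array of the dimmer one.

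In the other direction SLC5A7, the choline transporter of cholinergic nerve endings, was widest. Its signal was -9.56, -10.69, -10.10 and -7.79 in RB cows and -6.09, -7.43, -7.54 and -5.96 in non-RB cows. It was well above background on only 1 RB array and on 3 non-RB arrays, and its difference was -2.78 over 8 arrays, -3.00 over 7 and -0.36 after normexp background correction. ATP6V0D2, a subunit of the proton pump, differed by -1.38 and -1.48, with 2 of 4 RB arrays well above background. Over other processing settings its difference ranged from -1.84 to -0.12. AMBP, the precursor of alpha-1-microglobulin, differed by -0.89 and -0.73, and METTL17, a factor of mitochondrial ribosome assembly, by -0.77 and -0.70. BOLA-DYB, a class II histocompatibility gene of cattle, differed by -0.67 and -0.59, and its probe may also bind transcripts of related class II genes. AKR1A1, an aldehyde reductase, differed by -0.63 and -0.67, POLR1D, a subunit of RNA polymerases I and III, by -0.54 and -0.47, and IGF2R, the receptor that clears IGF2, by -0.53 and -0.35. In these 6 genes from AMBP to IGF2R the gap between the nearest arrays was narrow, and with normexp over 7 arrays AMBP (0.12) and BOLA-DYB (0.018) turned to the other side.

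Gene lists for pathways were described by the number of members on each side, by the number with an unadjusted p under 0.05 and by the median log2 difference, without a test. Of all probes, 1.2% were higher and 0.533% lower at that p over 8 arrays, and 3.75% and 0.883% over 7. In all, 6591 of 13135 probes were higher in RB cows over 8 arrays and 7679 over 7. List members that the study tabulates were picked on these animals, so their counts in a list are not independent evidence. Of 28 lists, the medians of 13 kept their sign over 8 combinations of scaling, background, block and array, and those of 15 did not. Of 500 listed genes with a probe 469 were tested, and of the 19 with more than 1 tested probe 5 (MGST2, COL2A1, IGF1, ATP5PB and FLT1) had probes of opposite sign.

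In lipid metabolism, 14 of 18 genes of cholesterol synthesis and lipoprotein uptake were lower in RB cows over 8 arrays and 15 over 7. The list median was -0.22 and -0.42, and it lay between -0.76 and -0.13 over the 8 combinations. VLDLR alone had an unadjusted p under 0.05 over 8 arrays, and SQLE and FDFT1, the squalene synthase, joined it over 7. At that p 0.533% of all probes were lower over 8 arrays and 0.883% over 7. VLDLR and SQLE were picked by the study on these animals. FDFT1 differed by -0.47 over 8 arrays and -0.60 over 7, with overlap in both. SCARB1, the receptor for high-density lipoprotein, differed by 0.56 and 0.04.

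In mitochondrial metabolism, 15 of 21 citrate cycle and pyruvate dehydrogenase genes were lower over 8 arrays, with a median of -0.15, and 14 over 7, with a median of -0.16. FH was the only member with a p under 0.05 over 8 arrays. PC, pyruvate carboxylase, pointed the other way, at 0.50 over 8 arrays and 0.96 over 7, where its groups did not overlap. Of 65 subunits of oxidative phosphorylation, 39 were lower over 8 arrays and 51 over 7, with medians of -0.02 and -0.15. With the slide or the scan session as a block 63 of the 65 were lower, with medians of -0.36 and -0.32. NDUFV2, of complex I, was the only one with a p under 0.05, at -0.75 over 8 arrays. No subunit reached that over 7 arrays.

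Zinc handling was on both sides. Of 11 genes tested, SLC39A2 alone had a p under 0.05, and 7 were higher and 4 lower over 8 arrays, with a median of 0.18 (0.13 over 7). Among the metallothioneins, zinc and copper stores of the cytosol, MT1A differed by 1.38 over 8 arrays and 0.26 over 7, and MT2A by 0.69 and 0.32.

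None of the hormone receptors and prostaglandin genes tested had an unadjusted p under 0.05 in limma over 8 arrays. OXTR, the oxytocin receptor, was at -1.89, -1.002, -2.94 and -1.74 in RB cows and at -1.51, -0.50, -3.45 and -0.02 in non-RB cows. The groups overlapped widely, and the difference of -0.52 (-0.23 over 7) was under the SD of either group, 0.80 and 1.52, while the fit with the slide as a block gave 0.67. PTGS2, the inducible cyclooxygenase, differed by 0.02 over 8 arrays and -0.38 over 7. The progesterone receptor PGR differed by 0.18 and 0.39. The estrogen receptor ESR1 was between -6.93 and -6.21 in RB cows and at -7.07, -5.64, -7.37 and -7.45 in non-RB cows. Its difference was 0.27 over 8 arrays and 0.68 over 7, where the groups did not overlap. ESR2, the other estrogen receptor, had means of -3.93 and -5.33, a difference of 1.40 (1.54 over 7) with overlap. In the list of 9 such receptors and cofactors the median was 0.04 over 8 arrays and 0.25 over 7. Of 18 prostaglandin genes 0 had an unadjusted p under 0.05 in limma over 8 or 7 arrays, and the median was 0.01 in both. PTGER3, a receptor for prostaglandin E2, was the nearest to the threshold, at -1.14 over 8 arrays and -0.63 over 7.

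Of 22 developmental transcription factors, 4 had an unadjusted p under 0.05 over 8 arrays, all higher in RB cows, where 1.2% of all probes were called in that direction. These were ID1 and ID3, which bind and silence other helix-loop-helix factors and are induced by BMP, HEY1, a target of Notch, and ETS2. ID3 was at -0.50, -0.50, -0.98 and -0.69 in RB cows and at -1.33, -1.65, -1.15 and -1.18 in non-RB cows. The groups did not overlap, and the difference was 0.66 over 8 arrays and 0.55 over 7. HEY1 also separated the groups, by 1.14 and 0.66, while ID1 (0.65 and 0.59) and ETS2 (1.17 and 0.98) overlapped. Of the 22 genes 13 were higher over 8 arrays and 15 over 7, with medians of 0.21 and 0.38, and over 7 arrays the 5 genes ID3, HEY1, ELF5, HOXA2 and TBX19 were higher with a p under 0.05 and 1 was lower, beside 3.75% and 0.883% of all probes. ID1 and ETS2 were not among these 5.

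Among 21 genes of TGF-beta, activin and BMP signalling, 0 had an unadjusted p under 0.05 over 8 arrays in limma and the median was 0.07 (0.06 over 7). Over 7 arrays BMPR2, the type II BMP receptor, differed by 0.84 and ACVR2B, an activin receptor, by -0.73. Of 14 IGF genes, IGFBP3, the main carrier of IGF in plasma, differed by 1.13 over 8 arrays and 0.91 over 7. Its groups were apart, but 3 RB arrays at -1.06 to -1.04 lay just above non-RB replicates 3 and 4 at -1.14 and -1.15, and RB replicate 2 stood at 0.40. The IGF list median was -0.02 over 8 arrays and 0.24 over 7.

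Of 28 genes of cartilage-type and basement membrane matrix, SMOC1 alone had an unadjusted p under 0.05 over 8 arrays. ACAN and HYAL2, a hyaluronidase, joined it over 7, the latter at 0.49 against 0.35 over 8. Of all probes, 1.2% were higher at that p over 8 arrays and 3.75% over 7. SMOC1 and ACAN were picked by the study on these animals. The list median was 0.05 and 0.12. Of 15 fibrillar collagen genes 10 were lower over 8 arrays but 6 over 7, with medians of -0.17 and 0.03. FN1, fibronectin, differed by -0.49 and -0.57.

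Of 18 interferon response genes 14 were lower in RB cows over 8 arrays, with a median of -0.24, and 9 over 7, with a median of -0.02. Limma gave 0 members with an unadjusted p under 0.05 over 8 or 7 arrays. TRIM21, an antibody receptor of the cytosol, came nearest at -0.55 and -0.42. Of 25 chemokine genes CCL14 alone had a p under 0.05, and the median was -0.15 over 8 arrays and 0.03 over 7.

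The 18 neuropeptide and synaptic genes had a median of 0.15 (0.06 over 7), with 10 higher and 8 lower over 8 arrays. TACR2, a tachykinin receptor, was lower with an unadjusted p under 0.05 over 8 arrays. TACR2 differed by -0.53 and -0.45, with overlap. SCG2, a granin of secretory vesicles, was well above background on 0 of 4 RB arrays. The groups overlapped over 8 arrays, with a difference of -0.26, and over 7 arrays SCG2 was at least 1.05-fold lower in RB cows. CHGA, another granin, had a mean of 1.66 in RB cows against 3.41 on the other side, a difference of -1.75 with overlap. Non-RB replicate 2 had no value for CHGA, so this difference rests on 7 arrays in both fits.

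Of 24 desmosome, keratin and junction genes 13 were lower over 8 arrays and 15 over 7, with medians of -0.12 and -0.14, and PKP1 alone had an unadjusted p under 0.05, over 7 arrays. Of 24 cell cycle genes RRM1, the large subunit of ribonucleotide reductase, alone had one. RRM1 differed by -0.69 over 8 arrays and -0.91 over 7, and the groups did not overlap over 7. The median of that list was -0.03 and -0.01.

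**Figure D4:**
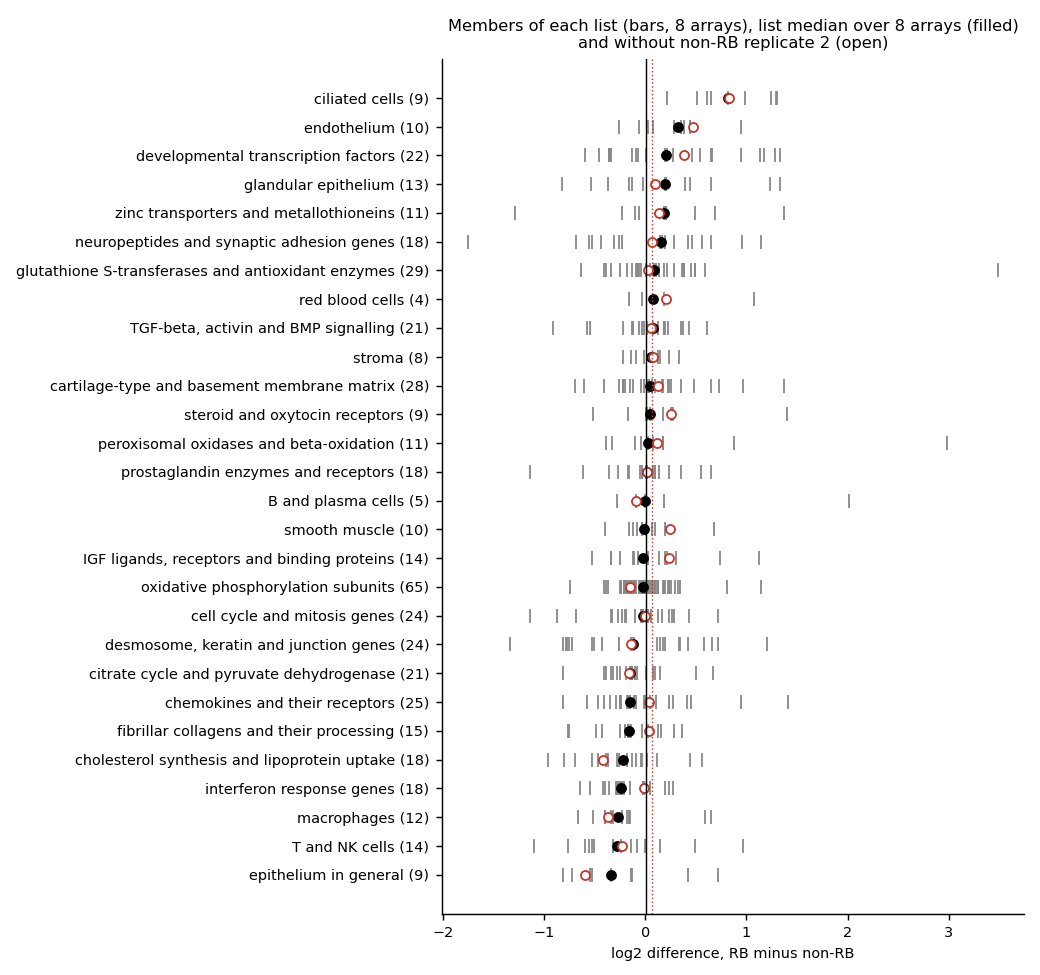
Log2 difference RB minus non-RB in contralateral CAR of the members of each gene list, over 8 arrays, with the list medians over 8 arrays and over the 7 arrays without non-RB replicate 2. The cholesterol list has a median of -0.22 over 8 arrays and -0.42 over 7, and the ciliated cell list 0.81 and 0.83.

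Markers of the cell types that a piece of caruncle can hold were read in the same way. In such bulk tissue fewer cells of a type and less RNA per cell cannot be told apart. All 8 stroma markers, 10 smooth muscle, 10 endothelial and 9 epithelial markers were detected on at least some arrays. Gland markers were present too: 10 of 13 were lower in CAR than in ICAR of the same horn, with a median of -0.30, and FOXA2, which marks uterine glands, differed by -1.57. The summed linear signal of the 13 gland markers was 9.72 to 21.3 on RB arrays and 13.0 to 19.2 on non-RB arrays, where the 75th percentile counts as 1. The group difference of these markers had a median of 0.20 over 8 arrays and 0.09 over 7, with 7 and 9 of 13 higher in RB cows, and of -0.18 with the slide as a block. FOXA2 differed by 0.20 and 0.46, and SPDEF, an ETS factor of secretory cells, by 1.33 and 1.55. BPIFB1, a secreted lipid-binding protein, differed by 1.24 and 1.74, and LTF, the iron-binding lactoferrin of gland secretion, by -0.83 and -1.33. The part of gland content in the results above was not tested.

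Of 9 general epithelial markers 7 were lower in RB cows over 8 and over 7 arrays, with medians of -0.34 and -0.60, and limma gave 0 with an unadjusted p under 0.05. KRT19, a keratin of simple epithelium, differed by -0.82 and -0.62. The sum over the 8 markers with a value on every array ranged from 12.02 to 26.5 on RB arrays and from 16.5 to 47.4 on non-RB arrays. Of 10 endothelial markers 8 were higher, with a median of 0.32 (0.47 over 7 and 0.10 without non-RB replicate 1). All 10 were higher with the slide or the scan session as a block, with medians of 0.71 and 0.53. SOX18, a factor of vessel and lymph endothelium, differed by 0.94 and 0.53. The endothelial sums were 7.96 to 9.11 in RB and 3.99 to 9.41 in non-RB cows.

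The 8 stroma markers had a median of 0.05 over 8 arrays and 0.07 over 7. The 10 smooth muscle markers had -0.01, with 5 higher and 5 lower, but 0.24 over 7 arrays, with 8 higher, and 0.39 and 0.40 with the slide and the session as a block. Both sums overlapped, 100.2 to 181.7 against 85.6 to 154.6 for stroma and 24.1 to 34.3 against 17.9 to 35.2 for smooth muscle. TCF21, a factor of stromal fibroblasts, differed by -0.02 over 8 arrays and 0.71 over 7. SMTN, the smooth muscle protein smoothelin, differed by 0.67 and 0.35.

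Of 12 macrophage markers 10 were lower in RB cows over 8 arrays and 11 over 7, with medians of -0.27 and -0.37. VSIG4, a complement receptor of resident macrophages, differed by -0.67 and -0.64. CD68, a lysosomal protein of phagocytes, was at -3.80, -3.67, -3.69 and -3.64 in RB cows and at -3.00, -5.54, -2.81 and -2.82 in non-RB cows. All of the non-RB arrays but the uneven one lay above the RB arrays, and the difference was -0.16 over 8 arrays and -0.83 over 7. ITGAM was well above background on none of the arrays. The macrophage sums ranged from 4.45 to 6.13 on RB arrays and from 4.21 to 8.73 on non-RB arrays.

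Of 14 T and NK cell markers 11 were lower, with a median of -0.28 (-0.23 over 7), which became 0.11 with normexp background correction over 7 arrays. KLRD1, a receptor of NK cells, differed by -0.77 and -0.90, and CD4 was not well above background on any array. The sums were 1.85 to 3.61 in RB and 2.03 to 3.53 in non-RB cows. JCHAIN, which joins secreted immunoglobulins and marks plasma cells, was at 2.65, 0.49, 2.75 and 1.35 in RB cows and at -2.31, -1.11, 0.54 and 2.08 in non-RB cows. The groups overlapped, with SDs of 1.08 and 1.92 and a difference of 2.01 (1.71 over 7), and the B and plasma cell list had a median of -0.01. The sums of that list, mostly JCHAIN signal on the RB arrays, were 1.64 to 7.02 in RB and 0.483 to 4.48 in non-RB cows. POU2AF1 was dim throughout. Red cell markers summed to 0.495 to 0.556 and 0.445 to 0.671, with HBB dim on every array and a list median of 0.08. Of these, EPB42, a red cell membrane protein, differed by 1.07 over 8 arrays and 0.56 over 7.

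Ciliated cell genes were all on the same side. The 9 markers tested, which build the axoneme and the motile cilium, were higher in RB cows over 8 and over 7 arrays, with medians of 0.81 and 0.83. DNAH9, an axonemal dynein, differed by 1.30 over 8 arrays and 1.03 over 7, and TEKT2, a tektin of the axoneme, by 0.81 and 0.69. These 2 had an unadjusted p under 0.05 over 8 arrays, and 1 marker had one over 7. Of all probes, 1.2% and 3.75% were higher at that p. No marker separated the groups. RB replicate 3 was the highest array for 8 of the 9 markers. The summed signal was 0.822, 1.41, 2.66 and 0.566 in RB replicates 1 to 4, and 0.697, 0.773, 0.491 and 0.645 in non-RB cows. In these sums RB replicates 1 to 3 stood above all non-RB arrays, replicate 1 by little, and RB replicate 4 lay among them. The probe of highest signal, CAPS, weighs most in the sums. Read singly, RB replicate 1 was below a non-RB array for DNAI1, CCDC113, TEKT1, SPAG6, RSPH1 and MNS1. RB replicate 2 was below one for CCDC113, TEKT1, RSPH1 and MNS1, and RB replicate 3 for MNS1. Without RB replicate 3 all 9 were still higher, with a median of 0.55, and 1 had an unadjusted p under 0.05. RB replicates 2 and 3 are the arrays on the slide without a non-RB array. With the slide as a block, which leaves slides 6 and 8 to give the difference, 6 markers were higher and 3 lower, with a median of 0.18. All 9 were lower in CAR than in ICAR, with a median difference of -1.35. DNAH11, an axonemal dynein that is in none of the lists, differed by 1.18 (1.25 over 7). It was named because its groups did not overlap over 8 arrays, so that separation is no independent evidence. Its probe owes the name to a description on the array. The difference fell to 0.37 in other processing settings, and limma gave an unadjusted p under 0.05 in 2 of 8 fits without a replicate. DNAH11 was at -2.91 in RB replicate 3, between -5.44 and -4.37 in the other RB cows and between -5.93 and -5.46 in non-RB cows. The part of intercaruncular tissue in these values was not tested.

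**Figure D5:**
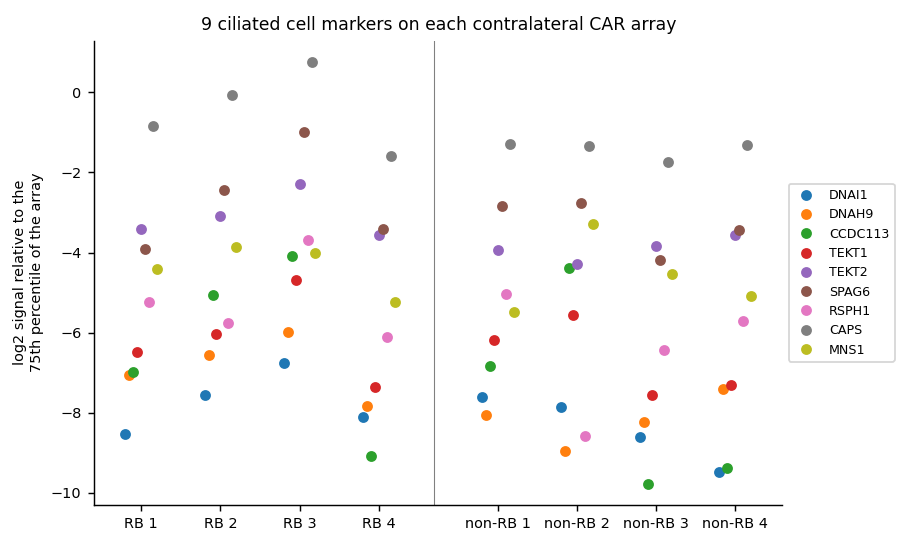
Log2 signal relative to the 75th percentile (y axis) of 9 ciliated cell markers on each contralateral CAR array (x axis), RB replicates at the left and non-RB at the right. RB replicate 3 is highest for 8 of the 9, and RB replicate 4 lies among the non-RB arrays, with summed signals of 2.66 and 0.566.

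The same contrast was then set beside the ipsilateral CAR and the contralateral ICAR, each with 4 RB and 4 non-RB arrays. The study took these tissues from the same cows. The tests of differences between tissues still treated all arrays as independent, except where a block for the replicate number is named. The test of whether the RB difference itself differed between the horns gave 41 of 13005 probes at an unadjusted p under 0.05 (0.315%) and 0 after adjustment (0.0%). Between CAR and ICAR of the contralateral horn it gave 36 of 12985 (0.277%) and 0 after adjustment (0.0%). Without the uneven array these were 52 and 30, and 0 after adjustment. With the replicate number as a block they were 104 and 89, and 0 after adjustment. The second count was 44 without non-RB replicate 1, whose ICAR array was the other uneven one. Of the 20 tabulated genes 0 had an unadjusted p under 0.05 for the horns in limma, and 1, SMOC1, for CAR against ICAR. Its difference was 1.37 in contralateral CAR and -0.79 in contralateral ICAR, a gap of 2.16 with a standard error of 0.65 (limma unadjusted p = 0.00473, adjusted p = 1.0). Without non-RB replicate 1 the gap was 1.57. The second SMOC1 probe gave 1.75 and 0.14.

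The leading genes had these values in the other tissues. GSTA3 differed by 3.83 in ipsilateral CAR and by 1.08 in contralateral ICAR. PIPOX differed by 2.22 and 2.85, and KLHL24 by 1.39 and 1.28. SLC39A2 differed by -1.26 and -0.52, FH by -0.82 and 0.22, and PLAAT1 by 1.41 and 0.41. No difference between tissues passed the threshold for these 6 genes, which does not show that they are alike. The study took every tissue from the same animals, so these values are not independent of each other.

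The named genes of lowest unadjusted p in the tests between horns were MOBP, MC1R and PATL1, with gaps of 1.26, 1.68 and 2.71 between contralateral and ipsilateral CAR. MOBP differed by 0.08 in contralateral and -1.18 in ipsilateral CAR. PATL1, an mRNA decapping factor, differed by 0.65 and -2.06, and its contralateral value went to 0.01 without the uneven array. MC1R, the melanocortin receptor of pigment cells, was well above background on 2 RB and 0 non-RB arrays and was at least 1.06-fold higher in RB cows over 8 arrays and at least 1.14-fold over 7. For CAR against ICAR they were SMOC1, AKAP3 and CLEC3B. CLEC3B, the plasminogen-binding protein tetranectin, differed by 0.33 in contralateral CAR and -0.38 in contralateral ICAR.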

How the data were processed

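Total RNA of contralateral CAR on Day 15 was measured on 4 RB and 4 non-RB arrays, 1 per cow, grouped by their titles. The authors scanned custom Agilent arrays, extracted them with Feature Extraction 9.5 and deposited for each spot a background-subtracted, detrended intensity, not normalized between arrays. The log2 value table that the authors deposited holds the same intensities on the log2 scale, shifted by the 75th percentile of the array and by a further constant of 0.00420 to 0.0140. Deposited replicates were not pooled.

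Here log2 intensity was centred on the 75th percentile of each array. Control spots were left out, outlier spots were set to missing and saturated spots kept. Probes that 2 or more of the 8 arrays (4 of 16 for differences between tissues) read well above background, with at least 3 values per group, or 2 in a group that lost an array, were tested with limma 3.58.1 in R 4.3.3, with Benjamini-Hochberg adjustment over all probes tested. For single genes an exact permutation test, two-sided, ran over 70 splits of 4 against 4 arrays or 35 of 4 against 3. Summaries and figures used Python 3.11.15, numpy 2.4.6, pandas 2.3.3 and matplotlib 3.10.9, and the fits were tested on simulated data. Replicates are separate cows, and their number sets the precision.

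Of 15208 probes 6106 received a symbol, from accessions, gene identifiers or names on the array matched to a RefSeq gene table, or, for 8, from the study's listing. A gene was read by its probe of highest mean signal over all arrays. The genes named were the 20 tabulated by the study, the 10 named genes in each direction with the widest difference and no overlap over 8 arrays, up to 4 members of each list by p, ESR1, PGR, OXTR and PTGS2, and the 3 named genes of lowest p in each test between tissues. A few others are given as list members, chosen after their values were seen. Some of these genes are not reported here. The comparison, the lists and the named genes were chosen with earlier results of these data known.

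Alternatives were 2 other filters, quantile normalization, the deposited table, normexp (offset 50) as background correction, a second-degree surface removed from each array, array quality weights, probes of the same sequence averaged, the methods' t-test, a block for slide, for scan session (arrays scanned in the same calendar month) or for replicate number, a fit of all 32 arrays and the removal of each replicate. Quantile normalization and normexp, each without non-RB replicate 2, were added after the data were seen.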

Additional observations from a re-analysis of the deposited data

Results flagged for a closer look

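A single array stood far from the other 3 of its group in 12 of 147 sets of 4 values from the genes named. The measure is the gap to the nearest array as a share of the whole range, held against Dixon's 95% critical value for 4 samples, which chance alone passes in about 1 in 20 sets. Non-RB replicate 2 was that array in 6 of the 12: for PLEKHA5 (-6.37, share 0.845), LIPC (-9.52, share 0.838), ADAM9 (-5.49, share 0.881), SELENOP (3.22, share 0.852), CD68 (-5.54, share 0.928) and EPB42 (-9.69, share 0.898). RB replicate 4 was low for GSTA3 (-5.32, share 0.901), and RB replicate 1 was low for ACAN (-4.40, share 0.954). RB replicate 2 was high for IGFBP3 (0.40, share 0.983). RB replicate 3 was high for ACVR2B (-5.18, share 0.850) and low for SMTN (1.41, share 0.858). Non-RB replicate 1 was low for GATM (-5.48, share 0.851). The causes were not tested.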

How the results depend on the processing

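After adjustment 0 probes passed in every fit of contralateral CAR and of both differences between tissues. At an unadjusted p under 0.05 the 228 probes of contralateral CAR became 730 with array quality weights, 933 with the slide and 990 with the scan session as a block, 420 with quantile normalization and 810 with normexp background correction, each of the last without non-RB replicate 2, and 120 (without RB replicate 2) to 609 (without non-RB replicate 2) when a replicate was left out. Both blocks set non-RB replicate 2 and RB replicates 2 and 3 aside, since none of these shared a slide or session with the other group. The share of higher probes was 69.3% over 8 arrays, 43.3% with quantile normalization, 48.6% without RB replicate 3, 54.6% without non-RB replicate 3, 81.0% without non-RB replicate 2, and 48.3% and 85.6% without it under quantile normalization and normexp. The median of all probes was 0.00 over 8 arrays, 0.11 with the slide and 0.12 with the session as a block, and 0.13 with normexp without non-RB replicate 2.

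The 41 probes that differed between horns became 537 with weights, 76 without a filter, 21 with probes well above background on all arrays, 443 with the slide as a block and 25 to 113 without a replicate (25 without RB replicate 4, 113 and 87 without non-RB replicates 1 and 4). The 36 between CAR and ICAR became 98 with weights, 20 with probes well above background on all arrays, 132 with the slide as a block, 22 with the surface removed and 20 to 115 without a replicate (20, 59 and 115 without RB replicates 1, 3 and 4, and 64 without non-RB replicate 2). The causes were not tested.

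With the replicate number as a block there were 243 probes in contralateral CAR, 104 between horns and 89 between CAR and ICAR, and 0 after adjustment. Same-numbered RB and non-RB arrays correlated at -0.235 to 0.149 in their deviations from the group mean, over 0.1 in 2 of 4. Within groups, contralateral CAR correlated over 0.1 with the same number in ipsilateral CAR in 3 of 4 RB and 4 of 4 non-RB arrays, and in contralateral ICAR in 3 and 2 of 4. Best with its own number were 3 and 4 arrays in ipsilateral CAR and 2 and 2 in contralateral ICAR. The labels do not say that a number is a cow, and not every pair passed 0.1, so the fits without the block come first.

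Of the values of single genes and list medians 2380 kept direction and side or moved by less than their spread, 48 of single genes reversed and 15 list medians moved. The last were the IGF list (0.42 with the session and 0.40 with the slide as a block), endothelium and oxidative phosphorylation as given above, T and NK cells (-0.032 with normexp, 0.11 with it without non-RB replicate 2), chemokines (0.14 with weights, 0.36 with the session, 0.19 with normexp without non-RB replicate 2) and steroid receptors (0.25 without non-RB replicate 2, with normexp or not, and 0.24 without RB replicate 4). PLEKHA5 gave -0.44 with weights, -0.93 with normexp and -0.99 with quantile normalization without non-RB replicate 2, -0.96 with the session and -0.98 with the slide as a block, and -0.97 to 1.20 when a replicate was left out. PTGS2 gave -0.012 with weights, -0.021 with the surface removed, -0.38 and -0.34 with normexp and quantile normalization without non-RB replicate 2, -0.26 with the session and -0.081 with the slide as a block, and -0.38 to 0.53 without a replicate. TCF21 gave 0.73 with weights, 0.028 with normexp, 0.47 and 0.49 with normexp and quantile normalization without non-RB replicate 2, 0.41 with the session, 0.17 with the slide and -0.47 to 0.71 without a replicate. SCG2 gave 0.045 with normexp, 0.15 with normexp without non-RB replicate 2 and -0.74 to 0.039 without a replicate. PATL1 gave -0.22 with quantile normalization without non-RB replicate 2, -0.37 with the session and -0.50 with the slide as a block. EPB42 gave -0.0657 and -0.0879 with these blocks, and OXTR 0.67 with the slide. With normexp without non-RB replicate 2 AMBP gave 0.12 and BOLA-DYB 0.018. MOBP gave -0.12 with quantile normalization without non-RB replicate 2 and -0.094 to 0.24 without a replicate. SELENOP gave 0.015 with quantile normalization and -0.71 to 0.20 without a replicate, and CD68 -0.83 to 0.084.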
